A study of Homo sapiens with 2 samples.

Results

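The 37 genes of the human mitochondrial genome were compared between HEL cells, a human erythroleukemia line, kept for 24 h with L1 at 1 µM and HEL cells kept for the same time with 0.5% DMSO, the vehicle. L1 is a synthetic derivative of diindolylmethane, a compound that forms from a constituent of cruciferous vegetables. Both groups are labelled wild type and were grown in RPMI with fetal bovine serum, messenger RNA was captured on beads, and each group was 1 sequenced library. The DMSO library held 32556872 counts and the L1 library 27135647. All 9 erythroid and megakaryocytic marker genes examined were measured, from EPOR with 371 counts in DMSO and 356 in L1 to ITGA2B with 40168 and 35288, and of these TFRC was at least 2-fold lower and HBG1 at least 2-fold higher in L1. Of 9 markers of T cells, B cells, fibroblasts, epithelium and monocytes, 6 were at 0 counts in both libraries, and the others summed to 0 counts in DMSO and 12 in L1.

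The genes were chosen by name, as every gene whose symbol starts with MT-. This gave 36 genes from the FPKM tables and 1 more, MT-TE, by its identifier from the count table of 61806 genes. They are 13 mRNAs, 2 rRNAs and 22 tRNAs. The mitochondrial genome was selected on earlier results that already held the counts of these genes in these libraries, so the ratios are a description and carry no test. Each condition being 1 library, how far cultures vary is unknown here and no p-value can be given. The intervals are 95% intervals that cover counting error only.

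Mitochondrial DNA is a small circle with genes on both strands. Each strand is copied into long RNAs that hold many genes, and the tRNAs that lie between the other genes mark where these RNAs are cut. Most of the mRNAs then receive poly(A) tails, which in some of them also complete the stop codon. The encoded proteins are subunits of respiratory complexes I, III and IV and of ATP synthase, also called complex V, which are assembled together with subunits from nuclear genes. The rRNAs and tRNAs serve the mitochondrion's own protein synthesis. In erythroid cells mitochondria also carry the first and the last steps of heme synthesis.

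Positions are those of GENCODE release 29 on GRCh38, which holds all 37 identifiers, on chromosome M. Of the genes, 28 belong to RNA from the heavy-strand promoter and 9 to RNA from the light-strand promoter, the latter being MT-ND6 and 8 tRNAs. The 3′ ends of the mRNA genes are shown because the libraries were made from RNA captured by its tail. In some of these genes the tail is part of the stop codon. The end of a gene need not be the end of its mRNA. MT-ATP8 and MT-ND4L end inside an mRNA shared with the next gene, and MT-ND6 is known to lack a tail. Each line gives the last 24 bases of the annotated gene, with the encoded bases of the stop codon in capitals.
MT-ND1, chrM:4239-4262: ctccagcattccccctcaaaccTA
MT-ND2, chrM:5488-5511: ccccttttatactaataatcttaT
MT-CO3, chrM:9967-9990: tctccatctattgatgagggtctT
MT-ND3, chrM:10381-10404: aaaaaggattagactgaaccgaaT
MT-ND4, chrM:12114-12137: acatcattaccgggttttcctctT
MT-CYB, chrM:15864-15887: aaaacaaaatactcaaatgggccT
MT-CO1, chrM:7422-7445: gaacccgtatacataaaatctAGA
MT-CO2, chrM:8246-8269: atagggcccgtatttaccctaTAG
MT-ATP8, chrM:8549-8572: cattcattgcccccacaatccTAG
MT-ATP6, chrM:9184-9207: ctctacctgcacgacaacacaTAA
MT-ND4L, chrM:10743-10766: aacctaaacctactccaatgcTAA
MT-ND5, chrM:14125-14148: ctaaccctactcctaatcacaTAA
MT-ND6, chrM:14149-14172, on the minus strand: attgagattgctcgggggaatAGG

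By the annotated ends, the stop codon is completed by the tail in the first 6 of these genes and encoded whole in the other 7. The last base of MT-ATP6, at 9207, is also the first base of MT-CO3. An mRNA of MT-ATP6 cut before that base would lack the last base of its stop codon, so MT-ATP6 may belong with the first 6. Some mRNAs share bases because their reading frames overlap. MT-ATP8 and MT-ATP6 share 46 bases, printed with the start codon of MT-ATP6 and the stop codon of MT-ATP8 in capitals. MT-ND4L and MT-ND4 share 7 bases, in capitals at the end of MT-ND4L. How reads over shared bases were counted is not given in the sources used here, so the values of these genes are uncertain.
MT-ATP8 and MT-ATP6, chrM:8527-8572: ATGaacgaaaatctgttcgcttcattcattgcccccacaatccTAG
MT-ND4L end, chrM:10743-10766: aacctaaacctactccaATGCTAA

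The mitochondrial genes took a smaller share of the counts in the L1 library, and the smaller share was that of the mRNAs. All 37 genes together had 3371276 counts in DMSO, 10.4% of the library, and 2147996 in L1, 7.92%. The 13 mRNAs had 2948746 and 1677994 counts, which were 9.06% and 6.18% of the libraries. The 2 rRNAs had 412914 and 459867 counts, 1.27% and 1.69%. The rRNAs thus took a larger share in L1, and with them the 22 tRNAs, at 0.0295% in DMSO and 0.0373% in L1. In RNA from a whole culture, fewer mitochondrial genomes in the cells and less RNA per genome cannot be told apart.

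The balance of the RNA classes within each library needs no scaling between libraries. The mRNAs were 87.5% of the mitochondrial counts in DMSO and 78.1% in L1, and the rRNAs 12.2% and 21.4%. The summed rRNA count was 0.140 of the summed mRNA count in DMSO and 0.274 in L1, a difference of 0.97 on the log2 scale.

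Ratios between libraries are given as log2 of L1 over DMSO after TMM scaling, in which the effective size of the DMSO library was 1.16 times that of the L1 library. A value of -1 is 2-fold lower in L1. All 13 mRNAs had a log2 ratio below 0, where 50.4% of the 18123 genes that reached 10 counts in either library did. For all 13 the whole counting interval lay below 0, where it did for 28.6% of all genes. With total counts or upper quartile scaling this held for 12 of 13, since the interval of MT-ND6 then held 0. Intervals narrow as counts rise, and the 12 heavy-strand mRNAs had at least 25629 counts in each library. The 28.6% is over genes down to 10 counts, so it is not a share at like depth. The mRNAs ranged from -1.11 to -0.13 with a median of -0.61, and the median of all 18123 genes was -0.0040. Since the mitochondrial mRNAs are abundant, the 455 genes with at least 10000 counts are a closer setting, and of these 55.2% were below 0, with a median of -0.030. At least 2-fold lower was 1 mRNA of 13, MT-ATP8, where 4.83% of all genes were. At least 1.5-fold lower were 7 of 13, where 11.4% of all genes were. At least 2-fold higher were 0 of the 13, where 7.12% of all genes were.

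**Figure D1:**
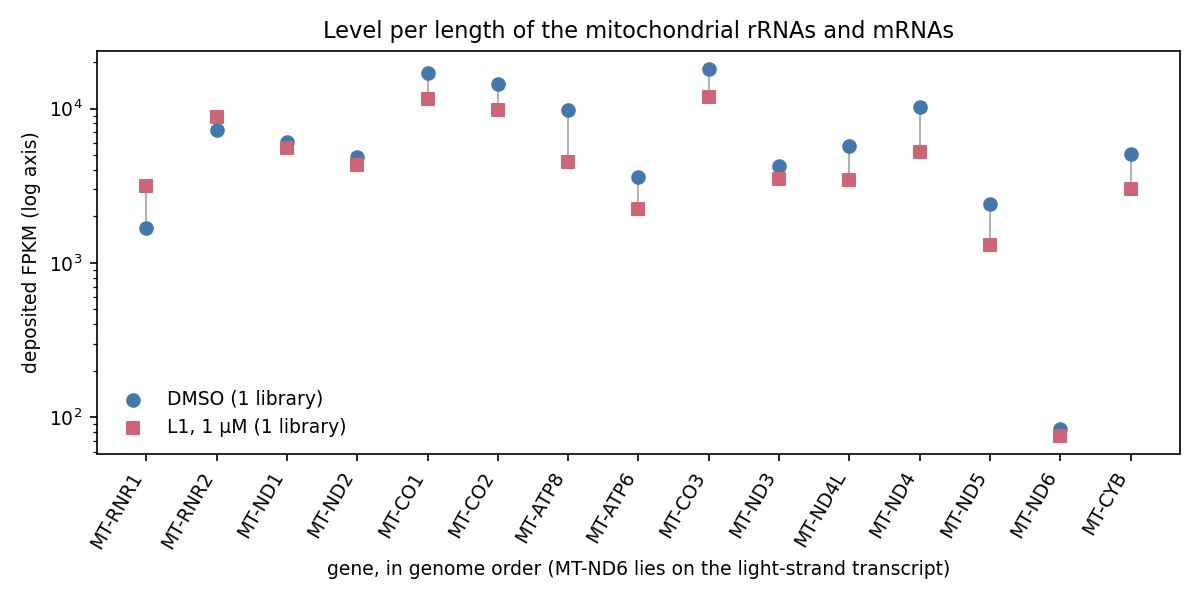
Deposited FPKM, on a log axis, of the 2 rRNAs and 13 mRNAs in genome order, with a blue circle for the DMSO library and a red square for the L1 library. The red square lies below the blue circle for all 13 mRNAs and above it for both rRNAs, and MT-ND6 lies far below the other genes at 84.5 in DMSO and 76.3 in L1.

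Complex I takes electrons from NADH, and 7 of its subunits are encoded here. Their mRNAs had a median log2 ratio of -0.27 and formed separate levels, with MT-ND1, MT-ND2, MT-ND3 and MT-ND6 between -0.27 and -0.13 and MT-ND4L, MT-ND5 and MT-ND4 between -0.96 and -0.72. MT-ND1, a membrane subunit that lies next to the site where the electron carrier ubiquinone enters, had 184497 counts in DMSO and 145878 in L1, for a log2 ratio of -0.13 (-0.14 to -0.12). MT-ND2, one of the proton-pumping subunits, had 161502 and 123469 counts, a log2 ratio of -0.17 (-0.19 to -0.16). MT-ND3, a small membrane subunit, had 46557 and 33315 counts, a log2 ratio of -0.27 (-0.29 to -0.25).

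MT-ND4, another proton-pumping subunit, had 445121 counts in DMSO and 196950 in L1, for a log2 ratio of -0.96 (-0.97 to -0.96), or 1.95-fold lower. MT-ND4L, which lies on the same mRNA as MT-ND4, had 53918 and 28161 counts, a log2 ratio of -0.72 (-0.74 to -0.70). The genes on this shared mRNA therefore had different ratios, and the level of MT-ND4L per length was 0.562 of that of MT-ND4 in DMSO and 0.663 in L1. MT-ND5, also a proton-pumping subunit, had 138676 and 65228 counts, a log2 ratio of -0.88 (-0.89 to -0.86).

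MT-ND6 is the only mRNA from the light-strand promoter, and it is known to lack a poly(A) tail in human cells. It had 1410 counts in DMSO and 1098 in L1, for a log2 ratio of -0.15 (-0.26 to -0.03). MT-ND5 ends where MT-ND6 ends on the other strand, and per length it was at 28.5 times the level of MT-ND6 in DMSO and 17.2 times in L1. Whether strand was used in the counting is not given in the sources used here, so reads of MT-ND6 and of RNA antisense to it cannot be told apart.

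Complex III passes electrons to cytochrome c, and its central subunit, cytochrome b, is its only one encoded here. Its gene, MT-CYB, had 184821 counts in DMSO and 94475 in L1, for a log2 ratio of -0.76 (-0.77 to -0.74). Within each library, MT-CYB had 1.00 times the counts of MT-ND1 in DMSO and 0.648 times in L1. These mRNAs, near-equal in counts under DMSO, differed by -0.63 (-0.64 to -0.61) on the log2 scale in L1 relative to DMSO.

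Complex IV, cytochrome c oxidase, passes electrons to oxygen, and its 3 subunits encoded here had the 3 highest FPKM values of all 36 mitochondrial genes listed, in both libraries. MT-CO1, which holds the site where oxygen is reduced, had 829442 counts in DMSO and 485582 in L1, for a log2 ratio of -0.56 (-0.56 to -0.55). MT-CO2, which receives electrons from cytochrome c, had 311769 and 182551 counts, a log2 ratio of -0.56 (-0.57 to -0.55). MT-CO3, the third core subunit, had 448690 and 253824 counts, a log2 ratio of -0.61 (-0.62 to -0.60). MT-CO1 and MT-CO2 kept their proportion within counting error. The level of MT-CO1 per length was 1.18 times that of MT-CO2 in both libraries, and the difference in log2 was -0.00025 (-0.010 to 0.0095).

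Complex V, ATP synthase, has subunits of its membrane part encoded by MT-ATP8 and MT-ATP6, which share an mRNA. MT-ATP8 had 64248 counts in DMSO and 25629 in L1, for a log2 ratio of -1.11 (-1.13 to -1.09), the lowest of the 37 genes. MT-ATP6, which forms part of the proton channel, had 78095 and 41834 counts, a log2 ratio of -0.69 (-0.70 to -0.67). As with MT-ND4L and MT-ND4, genes on 1 mRNA had different ratios, and the level of MT-ATP8 per length was 2.71 times that of MT-ATP6 in DMSO and 2.02 times in L1. Summed, the counts of MT-ATP8 and MT-ATP6 gave a log2 ratio of -0.86 (-0.88 to -0.85). These values leave out MTATP6P1, a near-identical copy of MT-ATP6 in the nuclear genome, which had 57566 counts in DMSO and 32658 in L1. With its nuclear copies MT-ATP6 had 135677 and 74531 counts and a log2 ratio of -0.65. The level of MT-ATP8 relative to MT-ATP6 and the sum for complex V therefore depend on how such reads were assigned.

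By complex, the summed counts, without nuclear copies, gave log2 ratios of -0.58 for complex I, -0.76 for complex III, -0.57 for complex IV and -0.86 for complex V. The genes within complex I, from -0.96 to -0.13, thus spanned a wider range than the sums of the complexes.

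The makeup of the mRNA counts differed most at MT-ND4, which took 15.1% of the counts of the 13 mRNAs in DMSO and 11.7% in L1. MT-ND1 took 6.26% in DMSO and 8.69% in L1. For MT-ND2 the shares were 5.48% and 7.36%. These are the largest differences among the 13 mRNAs, with MT-ND4 smaller and MT-ND1 and MT-ND2 larger in L1. MT-CO1 took 28.1% and 28.9%, and MT-CO3 15.2% and 15.1%. Complex I as a whole took 35.0% and 35.4% and complex IV 53.9% and 54.9%, so the makeup differed within complex I far more than between these complexes.

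**Figure D2:**
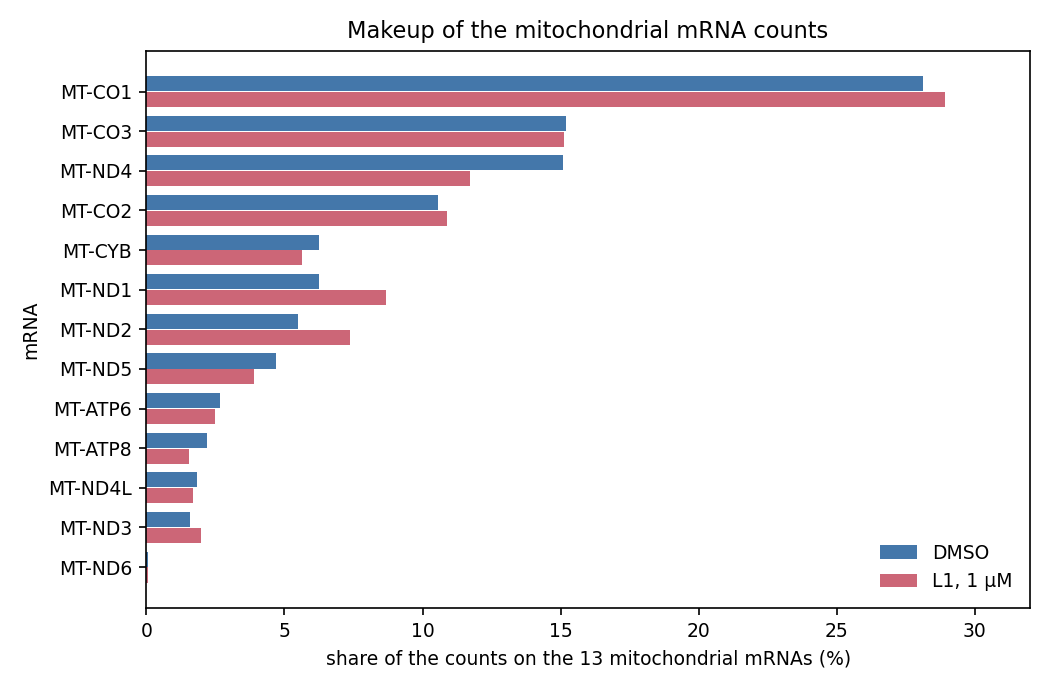
Share of each mRNA in the counts of the 13 mitochondrial mRNAs, in percent, with a blue bar for the DMSO library and a red bar for the L1 library. The bars of MT-ND4 are at 15.1% and 11.7%, those of MT-ND1 at 6.26% and 8.69% and those of MT-ND2 at 5.48% and 7.36%.

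FPKM divides the reads of a gene by its length and a scaled library size. Ordered by FPKM, the levels in DMSO were highest for MT-CO3 at 18003, MT-CO1 at 16921, MT-CO2 at 14338 and MT-ND4 at 10161. In L1 the same 3 genes came first, at 11805, 11483 and 9732. MT-ND4 was at place 4 in DMSO and place 6 in L1, MT-RNR2 at place 6 and place 4, and MT-ND1 at place 7 and place 5. Among the 15 rRNAs and mRNAs, every pair of neighbours in the order differed beyond counting error in DMSO. In L1 all did except MT-ND3 at 3511 and MT-ND4L at 3457. Counting error does not cover reads placed on nuclear copies, which this order leaves out. MTATP6P1, a nuclear copy of MT-ATP6, had an FPKM of 2659 in DMSO and 1749 in L1, where MT-ATP6 had 3607 and 2240. MTND2P28, a copy of MT-ND2, had 436 and 458, where MT-ND2 had 4876 and 4321 and MT-CYB had 5095 in DMSO. MTCO1P12, a copy of MT-CO1, had 463 and 350. The places of MT-ATP6 and MT-ND2 are therefore uncertain, and so is the order of MT-CO3 and MT-CO1 in L1.

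The ratios tended to be lower farther along the heavy strand, though not gene by gene. From the start of the RNA onward, the rRNAs had log2 ratios of 0.91 and 0.27, MT-ND1 and MT-ND2 a median of -0.15, the 6 mRNAs from MT-CO1 to MT-ND3 a median of -0.58, and the last 4, from MT-ND4L to MT-CYB, a median of -0.82. Over the 14 rRNAs and mRNAs of the heavy strand, Pearson's r between the log2 ratio and the distance of the gene from the start of MT-TF was -0.80 and Spearman's rho was -0.80. Over the 12 mRNAs alone, r was -0.62 and rho -0.68, and with gene length in place of distance r was -0.05 and rho -0.02. All points come from the same pair of libraries and lie on the same long RNA, so they are not independent. MT-ND3 lay above the genes around it, at -0.27 between MT-CO3 at -0.61 and MT-ND4L at -0.72, and MT-ATP8 lay below, at -1.11 between MT-CO2 at -0.56 and MT-ATP6 at -0.69. From MT-ND4 onward the ratio rose with distance, from -0.96 to -0.88 at MT-ND5 and -0.76 at MT-CYB.

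**Figure D3:**
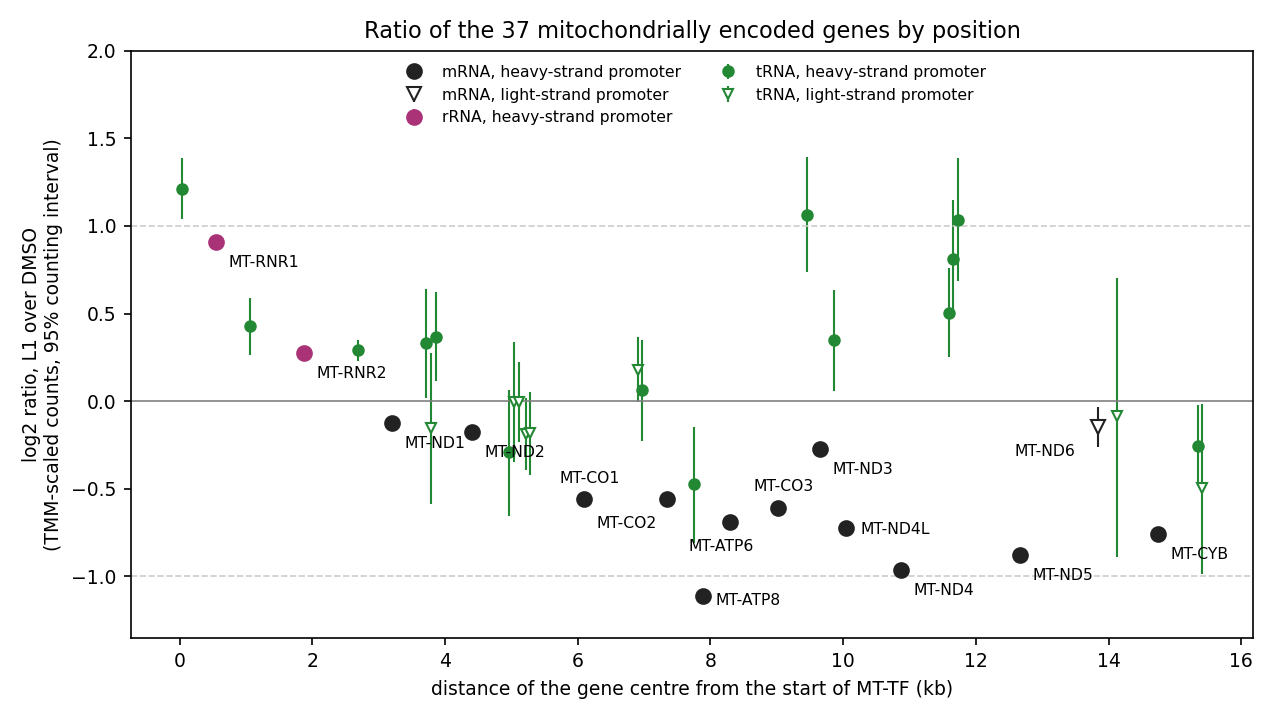
Log2 ratio of L1 over DMSO of the 37 genes against the distance of the gene's centre from the start of MT-TF, in kb, with mRNAs in black, rRNAs in purple and tRNAs in green, filled circles for the heavy-strand promoter, open triangles for the light-strand promoter, bars for 95% counting intervals and dashed lines at 2-fold. The rRNAs lie at 0.91 and 0.27 on the left, the last 4 heavy-strand mRNAs lie between -0.96 and -0.72, and MT-ND6 from the other strand lies at -0.15.

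By strand, the 12 heavy-strand mRNAs had a median log2 ratio of -0.65, against -0.15 for MT-ND6. The difference is within the range of the heavy-strand mRNAs, since MT-ND1 at -0.13 and MT-ND2 at -0.17 lay on either side of MT-ND6. With total counts the log2 ratio of MT-ND6 was -0.10 (-0.21 to 0.02), and with upper quartile scaling it was -0.11 (-0.22 to 0.0056). By annotated stop codon, the 6 genes completed by the tail had a median of -0.44 (range -0.96 to -0.13). The 7 with a whole stop codon had a median of -0.69 (range -1.11 to -0.15), and these ranges overlap over most of their length. MT-ATP6, itself at -0.69, is among the 7 by its annotated end only, so these medians depend on its placement.

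The rRNAs, which form the mitochondrial ribosome with proteins from nuclear genes, were the abundant mitochondrial RNAs with more counts in the L1 library. MT-RNR1, the rRNA of the small ribosomal subunit, had 51037 counts in DMSO and 82533 in L1, for a log2 ratio of 0.91 (0.89 to 0.92). MT-RNR2, the rRNA of the large subunit, had 361877 and 377334 counts, a log2 ratio of 0.27 (0.27 to 0.28). The level of MT-RNR1 per length was 0.230 of that of MT-RNR2 in DMSO and 0.357 in L1, a difference in log2 of 0.63 (0.62 to 0.65).

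Capture on beads depends on the tail, and some nuclear RNAs known to lack a long tail were also higher in the L1 library. RN7SL1, an RNA of the signal recognition particle, had 186 counts in DMSO and 399 in L1, for a log2 ratio of 1.31 (1.06 to 1.57). RN7SL2, a near-identical gene of the same RNA, had 180 and 385 counts, a log2 ratio of 1.31 (1.05 to 1.57). The 70 cluster histone genes of the count table, most of whose mRNAs end without a tail, summed to 2697 counts in DMSO and 6750 in L1. That is a log2 ratio of 1.54 (1.47 to 1.60). Much of the sum was H2BC12, with 1201 and 2742 counts, and H1-2, with 637 and 1334. Whether the histone reads came from RNA without a tail is not known here. MT-ND6, also without a tail, was at -0.15. These genes were chosen after the values were seen, and the part of tail capture in the values of the rRNAs was not tested.

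MT-TL1, the leucine tRNA gene between MT-RNR2 and MT-ND1, lies where the rRNA and mRNA ratios part. It holds the letters TGGCAGAGC, in capitals, which are part of the binding site of the transcription terminator MTERF1. They occur in 1 of the 37 mitochondrial genes when both strands are searched, and in 226 of 35116 RefSeq promoters of 300 bases, or 0.644%. The letters were searched as part of this known site, so their presence in MT-TL1 was fixed in advance. The match is a description and says nothing of binding in these cells. MTERF1 had 596 counts in DMSO and 422 in L1, for a log2 ratio of -0.28 (-0.47 to -0.10). Its part in the mitochondrial ratios was not tested.
MT-TL1, chrM:3230-3304: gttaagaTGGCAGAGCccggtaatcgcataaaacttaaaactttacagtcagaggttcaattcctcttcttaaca

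MT-TL1 had 4447 counts in DMSO and 4696 in L1, for a log2 ratio of 0.29 (0.23 to 0.35), which overlaps the interval of MT-RNR2 before it and not that of MT-ND1 after it. Relative to MT-ND1, MT-RNR2 was higher in L1 than in DMSO by 0.40 on the log2 scale (0.39 to 0.41).

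The tRNAs, which carry amino acids to the mitochondrial ribosome, were not lower as a class in the L1 library. A finished tRNA has no tail, so reads on these genes may also come from longer RNAs that hold the tRNA. The 22 genes together had 9616 counts in DMSO and 10135 in L1, for a log2 ratio of 0.29 (0.25 to 0.33), and the median over the genes was 0.12. The whole interval lay above 0 for 10 genes, where it did for 26.8% of all genes, and below 0 for 3, where it did for 28.6%. It held 0 for 9. Under the other scalings the intervals above 0 were 9 to 11 and those below 0 were 1 to 4, and MT-TI, MT-TT and MT-TP each had an interval that held 0 under at least 1 of them. At least 2-fold higher were 3 of 22, MT-TF, MT-TG and MT-TL2, where 7.12% of all genes were, and of these MT-TF alone had its whole interval past 2-fold. Excepting MT-TL1, no tRNA gene had more than 819 counts in a library.

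MT-TF, the phenylalanine tRNA gene at the start of the heavy-strand RNA, had 410 counts in DMSO and 819 in L1, for a log2 ratio of 1.21 (1.04 to 1.39), the highest of the 37 genes. MT-TV, the valine tRNA gene between the rRNAs, had 582 and 675 counts, a log2 ratio of 0.43 (0.26 to 0.59). Both tRNA genes beside MT-RNR1 were thus higher in L1, as MT-RNR1 was.

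MT-TH, MT-TS2 and MT-TL2, for histidine, serine and leucine, lie side by side between MT-ND4 and MT-ND5. They are printed because they are higher in L1 in the middle of a stretch whose mRNAs are lower.
MT-TH, chrM:12138-12206: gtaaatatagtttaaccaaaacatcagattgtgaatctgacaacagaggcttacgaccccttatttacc
MT-TS2, chrM:12207-12265: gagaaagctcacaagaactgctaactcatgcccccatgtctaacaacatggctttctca
MT-TL2, chrM:12266-12336: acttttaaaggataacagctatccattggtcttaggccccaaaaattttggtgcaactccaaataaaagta

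MT-TH had 236 counts in DMSO and 289 in L1, for a log2 ratio of 0.51 (0.25 to 0.76). MT-TS2 had 123 and 186 counts, a log2 ratio of 0.81 (0.47 to 1.15). MT-TL2 had 107 and 189 counts, a log2 ratio of 1.03 (0.68 to 1.39). Summed, they had 466 and 664 counts and a log2 ratio of 0.72 (0.55 to 0.90), while MT-ND4 before them was at -0.96 and MT-ND5 after them at -0.88. MT-TG, the glycine tRNA gene between MT-CO3 and MT-ND3, was also far above its neighbours, with 122 and 220 counts and a log2 ratio of 1.06 (0.74 to 1.39).

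Of the 12 heavy-strand tRNA genes with an mRNA or rRNA on both sides, 10 had a log2 ratio above both, and for 8 the whole interval lay above both. The exceptions were MT-TV, between rRNAs at 0.91 and 0.27, and MT-TW for tryptophan, which had 159 and 112 counts and a log2 ratio of -0.29 (-0.65 to 0.07). MT-TK for lysine was above both neighbours with 203 and 126 counts, but its log2 ratio was -0.47 (-0.81 to -0.15). MT-TI, MT-TM, MT-TD and MT-TR, for isoleucine, methionine, aspartate and arginine, lay between 0.06 and 0.37. Over the 14 heavy-strand tRNA genes, r between log2 ratio and distance was -0.09. Of the 7 light-strand tRNA genes with an mRNA or rRNA on both sides, 4 were above both, 1 of them by its whole interval.

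By strand, the 14 heavy-strand tRNA genes had 7581 counts in DMSO and 8441 in L1, for a log2 ratio of 0.37 (0.32 to 0.41), with 11 of 14 above 0. The 8 light-strand tRNA genes had 2035 and 1694 counts, a log2 ratio of -0.05 (-0.15 to 0.04), with 7 of 8 below 0. Only 1 of these 8 had its whole interval below 0, MT-TP for proline, with 98 and 60 counts and a log2 ratio of -0.49 (-0.98 to -0.02). MT-TS1, with 499 and 488 counts, was the light-strand tRNA gene above 0, at 0.18 (-0.0021 to 0.36). MT-TQ, MT-TA, MT-TN, MT-TC and MT-TY lay between -0.19 and -0.0032, and all their intervals held 0 after TMM scaling. MT-TE had 32 and 26 counts, too few to place its log2 ratio of -0.09 (-0.89 to 0.71).

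**Figure D4:**
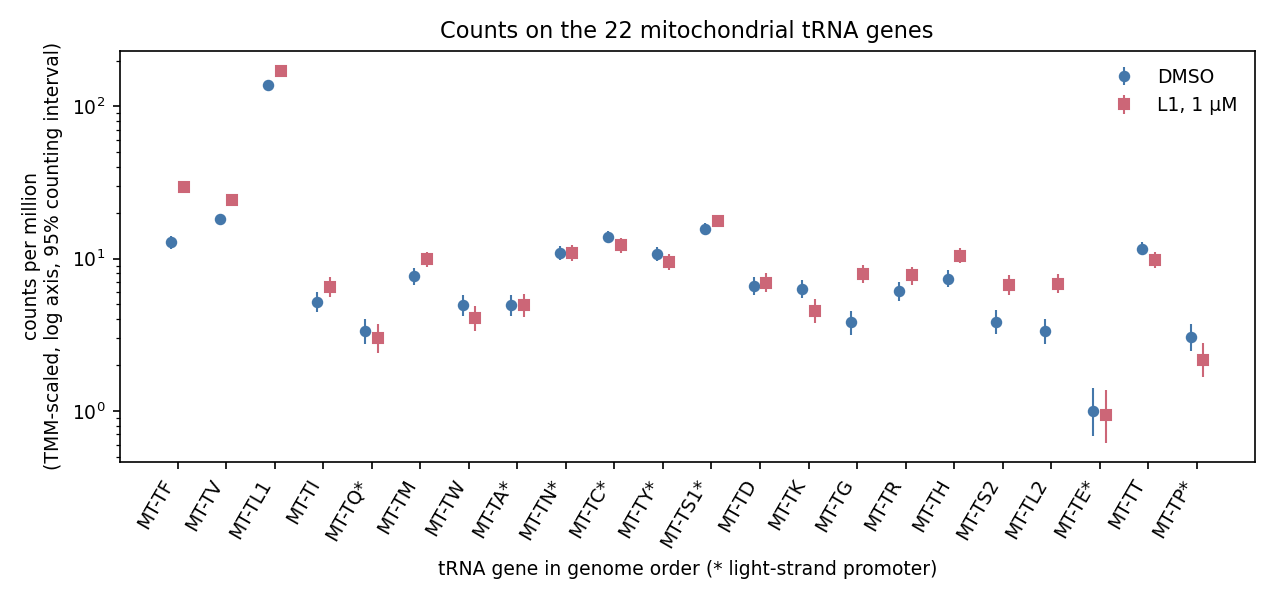
Scaled counts (CPM after TMM) and on a log axis, of the 22 tRNA genes in genome order, with 95% counting intervals, blue circles for the DMSO library, red squares for the L1 library and an asterisk for genes of the light-strand promoter. On the log axis the red squares stand farthest above the blue circles at MT-TF, MT-TG, MT-TS2 and MT-TL2, and MT-TE lies lowest at 1.00 in DMSO and 0.942 in L1.

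Copies of mitochondrial genes in the nuclear genome share sequence with the mRNAs and can take or give reads. Of the 31-base words of MT-CO1, 66.7% also occur in a transcript of a nuclear gene, as do 62.8% for MT-ATP6 and 56.9% for MT-ND2. The shares were 4.95% for MT-CYB and 3.48% for MT-ND3. Of the rRNAs, MT-RNR2 had 31.7% and MT-RNR1 0. Of 404 nuclear pseudogenes matched by name, 36 had a count and 7 had at least 100 counts. MTATP6P1 lies on chromosome 1 from 633696 to 634376. Its counts were 57566 in DMSO and 32658 in L1, with a log2 ratio of -0.60 (-0.62 to -0.59). It differs from MT-ATP6 at 10 of 681 bases, and MT-ATP6 itself had 78095 and 41834 counts.

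Summing each mRNA with its copies left the ratios near where they were. MT-ATP6 with its copies had 135677 and 74531 counts, a log2 ratio of -0.65 in place of -0.69. MT-ND2 with its copies was at -0.15 in place of -0.17, MT-CO1 at -0.55 in place of -0.56, and MT-ND4 at -0.96, as alone.

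The nuclear-encoded subunits of the same complexes did not share the lower level of the mitochondrial mRNAs. The 37 nuclear-encoded genes of complex I had a median log2 ratio of 0.04, with 16 below 0, where 50.4% of all genes were. The medians were 0.02 for the 9 genes of complex III and 0.05 for the 11 of complex IV. The 15 of complex V had a median of -0.05, which became 0.0034 with libraries scaled to total counts. Over these lists 0 genes were at least 2-fold higher, where 7.12% of all genes were. At least 2-fold lower was 1 gene, where 4.83% of all genes were. That gene was NDUFA5, an accessory subunit of complex I, with 2075 counts in DMSO and 743 in L1 and a log2 ratio of -1.27 (-1.39 to -1.15).

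The genes farthest from 0 in the other complexes were within 2-fold. UQCRQ, of complex III, had 2251 and 2425 counts, a log2 ratio of 0.32 (0.24 to 0.40). COX6C, of complex IV, had 5580 and 4363 counts, a log2 ratio of -0.14 (-0.20 to -0.08). ATP5F1D, a subunit of the rotor of complex V, had 970 and 453 counts, a log2 ratio of -0.89 (-1.05 to -0.72), in the range of the mitochondrial genes of the same complex.

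**Figure D5:**
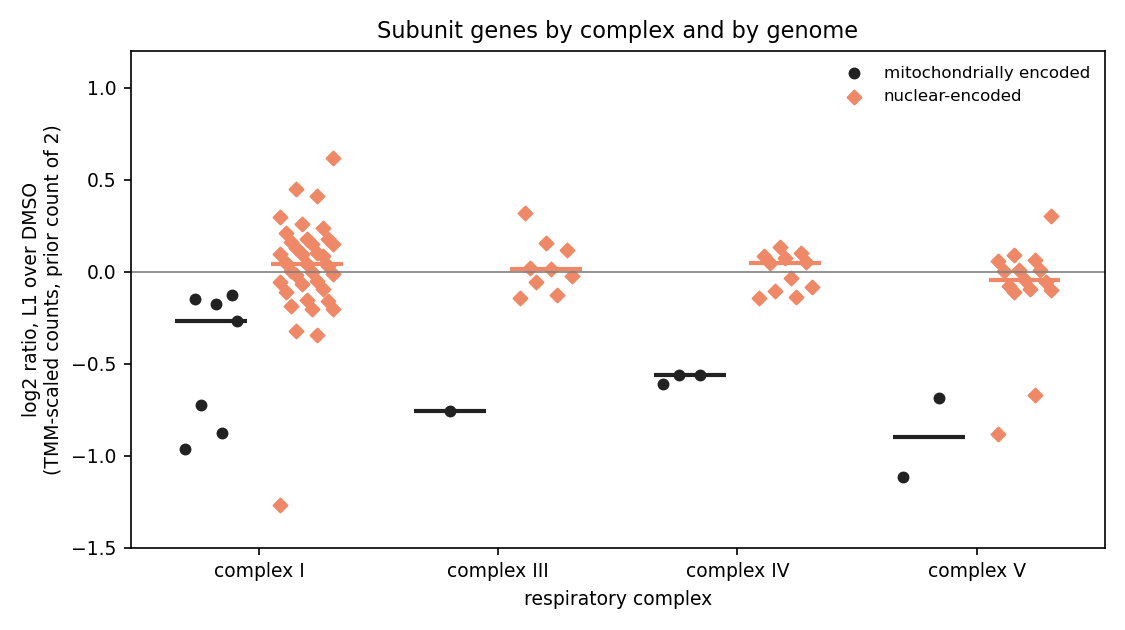
Log2 ratio of L1 over DMSO, with a prior count of 2, for subunit genes of each complex, with black circles for mitochondrially encoded genes, orange diamonds for nuclear-encoded genes and a bar at each median. The medians of the nuclear-encoded genes lie between -0.05 and 0.05 and those of the mitochondrially encoded genes between -0.90 and -0.27.

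Genes that copy mitochondrial DNA or make and keep its RNA are nuclear, and as lists they were not lower either. Of all genes, 50.4% were below 0, 4.83% were at least 2-fold lower and 7.12% at least 2-fold higher. The 16 genes of mitochondrial transcription and DNA upkeep had a median log2 ratio of 0.06, with 9 above 0 and 0 past 2-fold in either direction. The one farthest from 0 was MGME1, a nuclease of mitochondrial DNA upkeep, with 759 counts in DMSO and 1157 in L1 and a log2 ratio of 0.82 (0.69 to 0.96). The 28 genes of mitochondrial RNA processing and stability had a median of 0.12, with 20 above 0 and 0 past 2-fold in either direction. MRM2, which methylates the large mitochondrial rRNA, was farthest from 0 with 731 and 977 counts and a log2 ratio of 0.63 (0.49 to 0.77). LRPPRC and SLIRP form a complex that protects mitochondrial mRNAs, and they are named after their values were seen. LRPPRC had 14383 and 9928 counts, a log2 ratio of -0.32 (-0.36 to -0.28), and SLIRP had 1009 and 1084, a log2 ratio of 0.32 (0.19 to 0.44).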

How the data were processed

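HEL cells under DMSO and L1 gave 1 library each. The authors deposited raw read counts of 61806 genes, without normalization, and FPKM values of 13924 genes, described as normalized by gene length and library size. Between the libraries the FPKM values carry a size ratio of 1.16, that of TMM, where total counts give 1.20. The submitters' processing notes name fastp 2.0, HISAT2 2.1.0, StringTie and hg38. The counting program, its annotation and its strand setting are not given in the sources used here.

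TMM factors came from edgeR 4.0.16 and size factors, as an alternative, from DESeq2 1.42.0, in R 4.3.3. Ratios and intervals were computed with scipy 1.17.1, numpy 2.4.6 and pandas 2.3.3 under Python 3.11.15. Single genes carry a log2 ratio without a prior count and an exact 95% interval (Clopper-Pearson). Intervals of a ratio of genes within a library use the normal approximation to log counts. Counts of genes past 2-fold, and medians over nuclear genes, used a prior count of 2 and genes that reached 10 counts in either library. The depth was 32556872 counts in DMSO and 27135647 in L1. Reads carry no molecular identifiers as far as the sources used here state, so intervals cover counting error only.

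No test was run. Members and lists were chosen with earlier results of these data known. The genes named are all 37 mitochondrial genes by class, nuclear pseudogenes that reached 100 counts in either library, and for each list of nuclear complex subunits or mitochondrial DNA and RNA factors the members past 2-fold that reached 100 counts or, where there is none, the 1 farthest from 0. Marker genes, RNAs without a tail, MTERF1, LRPPRC and SLIRP are named outside this rule. Scripts were tested on simulated data. Sequences are from GENCODE release 29 transcripts (GRCh38). Alternatives were other scalings, the FPKM values, sums with nuclear copies or overlapping genes, and other thresholds and minimum counts.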

Additional observations from a re-analysis of the deposited data

How the results depend on the processing

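No paired analysis was possible because DMSO and L1 have 1 library each, and for the same reason no library could be left out. No direction of a mitochondrial gene whose interval excludes 0 was reversed by an alternative. The median of the 13 mRNAs was -0.56 with total counts, -0.64 with DESeq2 size factors and -0.57 with upper quartile factors. TMM without the mitochondrial genes left it within counting error. The FPKM values carry the same ratio between the libraries as TMM, 1.16, so they could not move it and are no separate check. At a threshold of 1.5-fold, 7 mRNAs were lower, where 11.4% of all genes were. The share of counts was 10.39% in DMSO and 7.95% in L1 over the genes of the FPKM tables, and 9.06% and 6.18% for mRNAs only. With overlapping genes summed, the median was -0.22 for complex I and -0.86 for complex V. Over all genes, 1811 were lower and 3544 higher with no minimum count, and 361 and 387 with at least 100 counts. With total counts the nuclear medians were 0.066 for complex III, 0.097 for complex IV and 0.0034 for complex V. Of 257 values of single mitochondrial genes under the alternatives, 213 stayed within their counting interval and 44 did not. The 44 were 14 each for total counts, DESeq2 and upper quartile and 2 with nuclear copies summed. The 213 include 36 values from the deposited FPKM, which could not differ from TMM. Counting error limits the tRNAs, and the spread between cultures, which limits all values, was not measured.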

Other observations

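Of the 7 nuclear pseudogenes with at least 100 counts, 6 lie together on chromosome 1 (GRCh38, 629062 to 634922), in the order of the mitochondrial genes that they copy. MTND2P28, which is 98.4% identical to MT-ND2, had 14479 counts in DMSO and 13113 in L1, for a log2 ratio of 0.07 (0.04 to 0.10), where MT-ND2 itself was at -0.17. MTCO1P12, 98.7% identical to MT-CO1, had 22691 and 14802 counts, a log2 ratio of -0.40 (-0.43 to -0.37), where MT-CO1 was at -0.56. MTND1P23 had 375 and 395 counts, a log2 ratio of 0.29 (0.08 to 0.50). For MTCO3P12 the counts were 145 and 81, a log2 ratio of -0.63 (-1.04 to -0.22), and for MTCO2P12 112 and 68, a log2 ratio of -0.51 (-0.96 to -0.06). The other, MTND4P12 on chromosome 5, is 95.7% identical to MT-ND4 and had 435 and 306 counts, a log2 ratio of -0.29 (-0.51 to -0.08), where MT-ND4 was at -0.96. In these libraries the copies of MT-ND1 and MT-ND2 were the ones above 0, and MT-ND1 and MT-ND2 were the heavy-strand mRNAs closest to 0. MT-ND1 itself had 184497 counts in DMSO and 145878 in L1, far more than MTND1P23. Summed with its copies, MT-ND1 was at -0.125 in place of -0.126, and MT-ND2 was at -0.15 in place of -0.17. How reads that fit a mitochondrial gene and its copy were assigned is not given in the sources used here, and its part in these values was not tested.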
